A study of Mus musculus with 4 samples.

Results

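Long-term haematopoietic stem cells (LT-HSC) from p38 alpha conditional knockout (cKO) mice were compared after transplantation with those from wild-type (WT) mice, with 1 Agilent 1-colour array for each genotype. These were 2 of the 4 arrays of the study, and the other 2 held multipotent progenitors (MPP) of the same genotypes. Per the labels, LT-HSC were the CD34- Flt3- fraction and MPP the CD34+ Flt3+ fraction of marrow cells without lineage markers and with Sca-1 and Kit (LSK cells). All donors were male C57BL/6J (Ly5.2) mice aged 10 weeks. CFSE, a dye that marks living cells, was applied to the sorted cells for 30 min before they were injected into lethally irradiated (9.5 Gy) Ly5.1 congenic mice. After 16 h the CFSE-positive cells of the femur and tibia marrow were sorted and total RNA was extracted. The labels give the same staining, irradiation and transplantation for WT and cKO cells and do not say whether these were done side by side. The Cre driver of the knockout, the deleted exons, and the number of mice behind an array are not given in the sources used here. Of the 55681 non-control probes, 41771 were well above background on at least 1 of the 2 LT-HSC arrays and entered the comparison. Of these, 35206 were well above background on both arrays, 3939 on the cKO array only and 2626 on the WT array only. They represented 27651 genes, each read at its brightest probe.

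p38 alpha is a mitogen-activated protein kinase that is switched on by cytokines and by oxidative, osmotic and inflammatory stress, and it passes the signal to further kinases and to transcription factors. Immediate early genes, which encode transcription factors such as Fos, Jun and Egr1, are transcribed within minutes of such signals without new protein synthesis. Adult LT-HSC mostly rest outside the cell cycle, and transplantation into an irradiated host drives them to divide, which needs newly made nucleotides. By its title the study concerns the role of p38 alpha in purine metabolism when these cells begin to cycle, and the comparison bears on which transcripts differ between the genotypes at that time.

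With 1 array for each genotype, no difference had a replicate check and no test was possible. Each difference below is the cKO minus the WT value on the log2 scale after each array was scaled to its 75th percentile of signal. The ± is the error that the scanner software assigns to the 2 signals, carried into the difference, with a median of 0.21 over genes. It does not cover cells, sorts or amplification. Processed signals are given as deposited, in the order WT LT-HSC, cKO LT-HSC, WT MPP and cKO MPP, and signals of different probes are not comparable as levels. The MPP pair shares no array with the LT-HSC pair, and its differences are set beside those of the LT-HSC. In bulk RNA, fewer cells of a type and less RNA per cell cannot be told apart.

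The 2 LT-HSC arrays differed widely. At 2-fold or more, 2948 of 27651 genes (10.7%) were higher on the cKO array and 2330 (8.43%) were lower. The 27651 genes include 3501 that were well above background on 1 array only and so have a bound in place of a measured difference. Among the 24150 genes measured on both arrays, 2134 (8.84%) were higher and 1942 (8.04%) lower. At 1.5-fold the shares over all genes were 21.3% higher and 15.4% lower, and these are the backgrounds for the gene groups below. In MPP the same probes gave 380 of 22152 genes (1.72%) 2-fold higher and 406 (1.83%) lower, and 6.56% higher and 7.43% lower at 1.5-fold. Over 21466 genes measured in both pairs, the interquartile range of the differences was 0.71 (LT-HSC) against 0.47 (MPP). The median difference over all genes was 0.11 in LT-HSC.

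The split between higher and lower genes depended on the processing. Higher genes made up 55.9% of those at 2-fold, 48.9% after quantile normalization, 44.0% after normexp background correction with quantile normalization, and 45.5% over the 13826 brighter genes. Size also went with brightness. Of 3 equal groups of genes by brightness, 21.2% of the dimmest differed 2-fold, 26.4% of the middle and 9.7% of the brightest. With the normexp correction, whose offset of 50 pulls dim signals together by construction, 888 genes were 2-fold higher and 1128 lower. For many large differences of dim probes, the signals or the value after the normexp correction are therefore given below, but not for all.

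**Figure D1:**
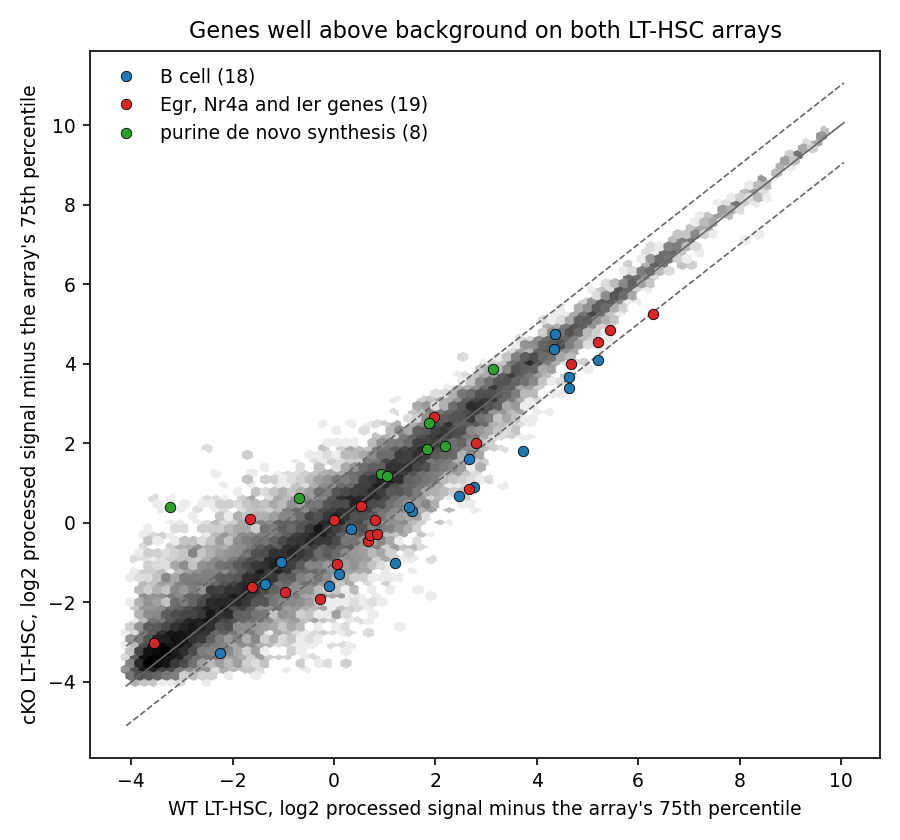
Each shaded hexagon counts genes (log scale of grey) by their scaled log2 signal on the WT LT-HSC array (x axis) and the cKO LT-HSC array (y axis), for the 24150 genes well above background on both. The solid line marks equal signal and the dashed lines a 2-fold difference; most coloured B cell genes and Egr, Nr4a and Ier genes lie below the solid line, and 7 of the 8 purine de novo synthesis genes lie above it.

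Among genes that differed 2-fold, the WT LT-HSC array was more often at the end of the range over the 4 arrays than the cKO LT-HSC array. Of 1926 genes that were 2-fold higher on the cKO array and well above background on all 4 arrays, the WT LT-HSC array had the lowest of the 4 values for 1697 (88.1%), and the cKO LT-HSC array had the highest for 978 (50.8%), with both true for 757, the WT array alone at its end for 940 and the cKO array alone for 221. Of 1642 genes that were 2-fold lower, the WT LT-HSC array was the highest for 1410 (85.9%), and the cKO LT-HSC array the lowest for 1025 (62.4%), with both true for 796, the WT array alone for 614 and the cKO array alone for 229. Choosing genes that differ 2-fold between these 2 arrays itself puts them at the ends of the range. Genotype and array cannot be told apart in this design. For the gene lists below, counts of members at an end of the range are given without the share over all genes. They do not show that a list differs from other genes in this respect.

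The array design held several probes for many genes, and these gave a check on the probes though not on the samples. For 7951 genes a second probe that did not overlap the brightest one on the genome was compared with it. Of 1553 such genes with a 2-fold difference at the brightest probe, the second probe had the same direction in 1031 (66.4%), reached 1.5-fold in that direction in 695 (44.8%), and was 2-fold in the opposite direction in 168. Agreement was 70.4% for genes higher on the cKO array and 62.1% for genes lower on it. Over all genes 58.3% were above 0 and 41.6% below 0, so these shares do not have the same background. It was 64.6% in the dimmest, 65.9% in the middle and 70.7% in the brightest of 3 equal groups. Over genes of any size of difference the share was 59.2%. A difference of a gene read by 1 probe is therefore a statement about that probe.

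**Figure D2:**
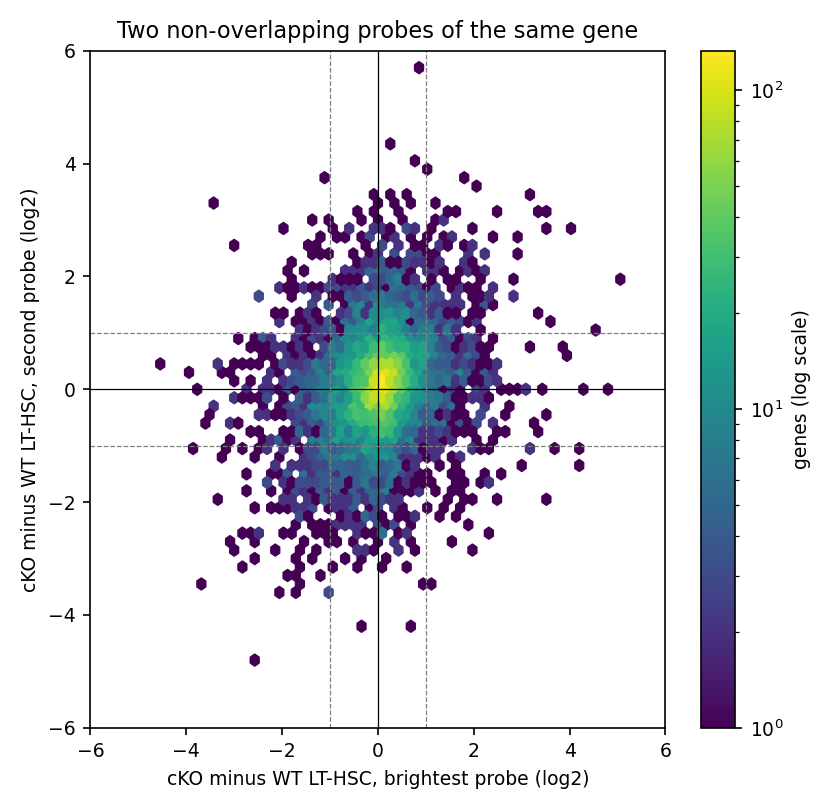
The cKO minus WT LT-HSC difference (log2) at the brightest probe of a gene (x axis) is plotted against that at its second, non-overlapping probe (y axis) for 6533 genes with both probes measured on both arrays; colour gives the number of genes per hexagon on a log scale and dashed lines mark 2-fold. The cloud is only slightly tilted, with a Pearson correlation of 0.23 across genes, which are not independent, and 1 gene lies outside the axes.

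Mapk14, which encodes p38 alpha itself, was measured by 2 probes that gave different answers. The brighter probe (mm9 chr17:28873965-28874024, plus strand, bases 1134 to 1193 of the transcript it was designed on) lies in the coding sequence. It is printed here, with all 60 bases in lower case, as the reading of the targeted transcript with the larger LT-HSC difference.
Mapk14 probe: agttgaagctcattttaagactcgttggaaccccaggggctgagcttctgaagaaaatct
Its signals were 1447, 912.2, 951.2 and 1024, a difference of -0.58 ± 0.20 in LT-HSC and of 0.13 in MPP. The LT-HSC difference fell just short of 1.5-fold. The other probe, farther 3' at mm9 chr17:28885290-28885349, had signals of 474.2, 490.5, 621.1 and 594.5 and a difference of 0.13 in LT-HSC. Only the brighter probe was lower on the cKO array, and the mean of both probes differed by -0.23. Since the deleted exons are not known, neither probe checks the genotype label, and cKO means the array labelled so throughout.

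The remaining p38 isoforms differed in both directions. Mapk11, which encodes p38 beta, had signals of 701.8, 158.5, 59.64 and 66.95 and a difference of -2.06 ± 0.21 at its 1 probe. Mapk12 (p38 gamma) was well above background on the WT but not on the cKO LT-HSC array, with signals of 119 and 11.36, at least 8.91-fold lower. Mapk13 (p38 delta) differed by 0.85 ± 0.23 from signals of 54.35 and 92.85, and by 0.36 after the normexp correction. In MPP all 4 genes lay within 1.5-fold. The WT LT-HSC array had the highest of the 4 values for 3 of the 4 kinases.

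Kinases above and below p38 differed in both directions, as did genes in general. Among 14 upstream kinases and adaptors 3 were 1.5-fold higher and 5 lower, and the median was 0.12. Map2k3, which phosphorylates p38 directly, differed by 1.10 ± 0.24, and Map3k4, farther upstream, by -1.15 ± 0.21. Of 16 substrates 3 were higher and 4 lower, with a median of -0.14. The nuclear kinase genes Rps6ka5 (Msk1) and Rps6ka4 (Msk2) had WT signals of 24.81 and 34.42 against 209.6 and 174.9 on the cKO array, differences of 3.16 ± 0.26 and 2.43 ± 0.23 that were 1.59 and 1.28 after the normexp correction. Mapkapk3, a cytoplasmic p38 effector kinase, was higher at both of its probes, by 1.03 and 0.69. Mef2c, among the 4 lower substrates, differed by -0.71 ± 0.20. Among 10 dual-specificity phosphatases, which switch MAP kinases off, 2 were higher and 3 lower. Over all genes 21.3% were 1.5-fold higher and 15.4% lower, so the higher counts of these lists lay near the background. The lower counts, 5 of 14, 4 of 16 and 3 of 10, lay above it. Dusp10 had signals of 1429, 570.9, 163.4 and 167.4, a difference of -1.24 ± 0.20, and Dusp5 differed by -2.33 ± 0.25 (-1.19 after the normexp correction).

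Immediate early genes were lower on the cKO LT-HSC array as a group, and many were lower on the cKO MPP array too. Of 12 AP-1 genes, which encode subunits of the Fos-Jun dimer and its relatives, 9 were at least 1.5-fold lower on the cKO LT-HSC array and 1 was higher, against backgrounds of 15.4% and 21.3% of all genes. Their median was -0.82 against 0.11 over all genes, and between -0.95 and -0.80 under the other scalings and corrections of the same probes. In MPP, 4 of 10 were lower, 0 were higher and the median was -0.46. Direction differed between probes for Fosl2, at 0.39 on the brightest and -1.40 on another.

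Fosb was the brightest of the group, with signals of 68350, 29710, 36570 and 15170. The cKO array was below the WT array in each population, with differences of -1.12 ± 0.20 (LT-HSC) and -1.24 (MPP). Fos itself had signals of 5571, 2866, 4202 and 1608, differences of -0.88 ± 0.20 and -1.36. Jun, the partner that gives the dimer its DNA contact together with Fos, had signals of 3161, 1753, 2078 and 961.3, differences of -0.77 ± 0.20 and -1.08. The values were -1.01 ± 0.20 and -0.61 for Junb, -0.74 ± 0.20 and -0.44 for Jund, and -1.20 ± 0.21 and -0.48 for the stress-induced repressor Atf3. For each of these 6 genes the order was the same, with the WT array above the cKO array in both populations. Batf, which pairs with Jun proteins in lymphocytes, was the member 1.5-fold higher in LT-HSC, with signals of 91.38, 178.6, 193.5 and 205.2 and a difference of 1.05 ± 0.21.

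Of 20 further early response genes 14 were 1.5-fold lower and 2 higher on the cKO LT-HSC array, with a median of -0.74. In MPP 7 of 17 were lower and 1 higher, with a median of -0.37. Nr4a1, an orphan nuclear receptor induced by many stimuli, had signals of 1362, 362.3, 304.3 and 123.3, a difference of -1.83 ± 0.20 in LT-HSC and -1.27 in MPP. Egr1, a zinc finger factor also described as keeping stem cells in the marrow, had signals of 16820, 7700, 10760 and 6094, differences of -1.05 ± 0.20 and -0.79. Nr4a2 was lower at both of its probes, by -1.13 and -0.91. Zfp36, whose protein destabilizes inflammatory mRNAs, stood at -0.59 ± 0.20 (LT-HSC) and -1.08 (MPP).

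The LT-HSC and MPP values were not alike for every member. Egr2 had signals of 176, 53.51, 18.81 and 21.13, which put the WT LT-HSC array alone above the rest, with a difference of -1.64 ± 0.22 in LT-HSC and a bound of 0.20 in MPP, where the WT signal was not well above background. Sgk1, a kinase gene induced by serum and steroids, stood at -1.09 ± 0.21 (LT-HSC) and 0.67 (MPP). Gadd45b, a stress gene whose product can activate kinases upstream of p38, had signals of 67.43, 214.3, 91.61 and 105.6 and was 1.75 ± 0.22 higher. Klf10, a factor induced by TGF-beta, was 0.69 ± 0.20 higher. Nr4a3 differed by 0.01. The WT LT-HSC array had the highest of the 4 values for 10 of the 12 AP-1 genes and 14 of the 20 further genes. Whether dissociation or sorting time differed between the arrays is not given in the sources used here.

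**Figure D3:**
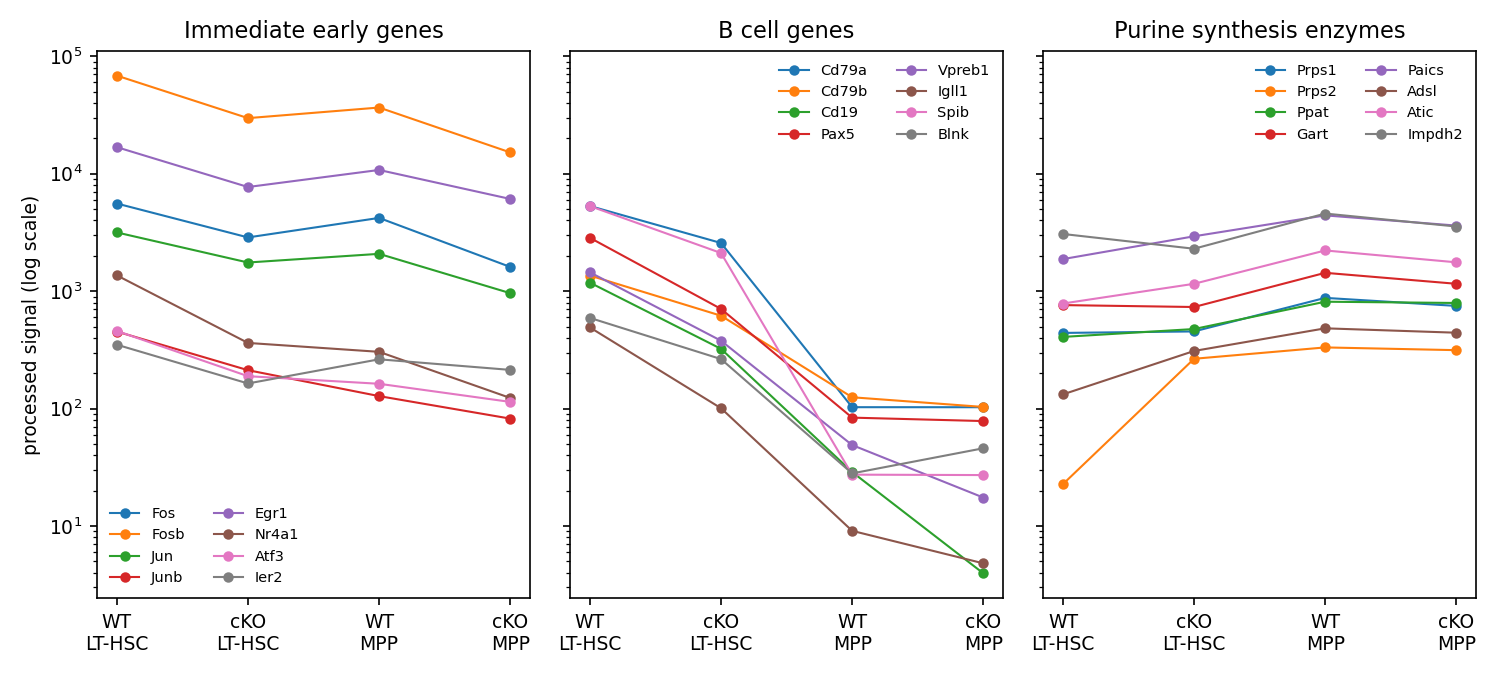
Processed signal (log scale) of 8 genes in each of 3 groups on the 4 arrays, 1 point per array, with lines joining the points of a gene; some MPP points of the B cell panel are not well above background. Early genes are lower on the cKO array of each population, B cell genes are lower on the cKO than on the WT LT-HSC array and lowest in MPP, and several purine enzymes are lowest on the WT LT-HSC array.

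Promoters of the early genes were searched because most of these genes were lower together. The windows were the 250 bases before each RefSeq start on GRCm38.p6, read on both strands. The cyclic AMP response element, TGACGTCA, was found for 1 of 11 AP-1 genes with a window (Maff) and 1 of 16 further early genes (Btg2), against 478 of 27025 genes in all (1.77%). The CArG box bound by serum response factor was found for 0 of 11 and for 2 of 16 (Egr2 and Zfp36), against 1.62% of all genes. The AP-1 site, TGANTCA, was found for 0 of 11 and 1 of 16 (Csrnp1), against 7.82%. A match, or the lack of one, describes letters in this window only. Fosl1, Egr1, Egr3, Ier2 and Klf10 had no window and were not searched. The windows of Zfp36 and Btg2 are printed as the examples of each element, with the CArG box or the TGACGTCA element in capitals, at chr7:28379229-28379478 and chr1:134079156-134079405, both on the minus strand.
Zfp36: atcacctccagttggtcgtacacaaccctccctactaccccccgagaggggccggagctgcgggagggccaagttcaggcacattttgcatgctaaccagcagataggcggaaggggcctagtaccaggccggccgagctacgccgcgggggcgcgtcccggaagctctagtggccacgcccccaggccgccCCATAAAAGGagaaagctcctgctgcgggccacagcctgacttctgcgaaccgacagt
Btg2: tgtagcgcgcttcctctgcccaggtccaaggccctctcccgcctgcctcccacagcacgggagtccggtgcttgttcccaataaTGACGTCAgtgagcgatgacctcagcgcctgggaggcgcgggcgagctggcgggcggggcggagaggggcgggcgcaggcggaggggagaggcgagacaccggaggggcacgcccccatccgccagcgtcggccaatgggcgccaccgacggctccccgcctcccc

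Enzymes of purine synthesis, the pathway in the study's title, were not lower on the cKO LT-HSC array as a group. Of the 8 genes that build the purine ring up to IMP, 4 were 1.5-fold higher, 0 were lower and 7 were above 0, with a median of 0.47 against 0.11 over all genes. In MPP all 8 lay within 1.5-fold, with a median of -0.21. For 7 of the 8 the WT LT-HSC array had the lowest of the 4 values.

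The largest difference was that of Prps2, which makes the ribose phosphate donor of the pathway. Its signals were 22.76, 265.6, 331.8 and 314.4, so that the WT LT-HSC array alone was low, and the difference was 3.63 ± 0.28 (1.93 after the normexp correction). Its isoform Prps1 differed by 0.12 ± 0.20. Adsl, which acts in both IMP and AMP synthesis, had signals of 132.2, 309.5, 482.5 and 442.7, a difference of 1.31 ± 0.21. Paics, with signals of 1874, 2931, 4415 and 3616, differed by 0.73 ± 0.20. Atic, which closes the ring, differed by 0.64 at one probe and -0.09 at another. Ppat, the committed step, differed by 0.30 and 1.21, and Gart by 0.03 and 1.5, so that neither gene had probes of like size. Pfas was the gene below 0, at -0.27 ± 0.20.

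Of the 12 genes from IMP to adenine and guanine nucleotides, 0 were 1.5-fold higher and 1 was lower, with a median of -0.03. Impdh2, the rate-limiting step to GMP, had signals of 3067, 2296, 4577 and 3549 and a difference of -0.34 ± 0.20 in LT-HSC and -0.34 in MPP. Its second probe overlaps the first, so it is no separate reading. Gmps, the next enzyme on that branch, had readings of -0.69 ± 0.20 (brightest probe, mm9 chr3:63802530-63802589), 1.77 and 1.42 (both farther 3'), and so has no settled direction. The window before the Impdh2 start held the E-box CACGTG, a motif that MiT factors among many others can bind; it was found for 3 of 11 genes of this group (Impdh2, Ak4 and Nme1), 2 of 7 ring synthesis genes (Paics and Atic) and 6.86% of all genes. It was found as often among the early genes, for 3 of 11 AP-1 genes and 5 of 16 further genes. The window is printed for the enzyme next to the branch to guanine nucleotides, at GRCm38.p6 chr9:108560186-108560435 on the plus strand, with the E-box in capitals.
Impdh2: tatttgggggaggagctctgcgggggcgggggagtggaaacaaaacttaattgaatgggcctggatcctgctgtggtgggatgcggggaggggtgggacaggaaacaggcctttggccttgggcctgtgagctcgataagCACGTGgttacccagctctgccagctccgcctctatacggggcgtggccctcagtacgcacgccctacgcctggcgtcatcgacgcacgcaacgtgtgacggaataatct

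The MiT transcription factor genes, which control lysosome and pigment programmes and to which Mitf belongs, did not share a direction. Mitf stood at 0.16 ± 0.21 at the brightest probe but -1.01 at another. Tfe3 had signals of 2002, 703.6, 542 and 727.3 and a difference of -1.43 ± 0.20, but of -0.05 at its other probe. Tfeb differed by 0.06 and 1.41, and Tfec by -0.77 ± 0.21. Each of the 3 genes with a second probe thus had probes at odds in size or direction.

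Pyrimidine and folate genes were more often higher than lower, and purine salvage genes were not. Of 19 pyrimidine and deoxynucleotide genes 9 were 1.5-fold higher and 3 lower, with a median of 0.41 (-0.22 in MPP). Tyms, which makes thymidylate, had signals of 23.26, 126.7, 92.32 and 75.53, a difference of 2.53 ± 0.29. It rested on a WT signal close to background, and the normexp correction left 1.04. Cmpk1, Uck2 and Cad differed by 1.56, 1.02 and 0.78. Rrm2b, the p53-inducible ribonucleotide reductase subunit, differed by -1.98 at one probe and 1.40 at another.

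Of 18 serine and folate genes 8 were higher and 2 lower, with a median of 0.58. Mthfd2, the mitochondrial folate enzyme of dividing cells, had signals of 265.2, 912.7, 1319 and 1180 and a difference of 1.86 ± 0.20. Only the WT LT-HSC array was low. Fpgs, which retains folates in cells, differed by 2.47 ± 0.27 (1.01 after the normexp correction), and Slc25a32 and Shmt2 by 1.75 and 1.04. Aldh1l2 went the other way, at -1.89 ± 0.28 (-0.79 after the normexp correction). The WT LT-HSC array had the lowest of the 4 values for 12 of the 19 pyrimidine genes and 13 of the 18 folate genes. Of 13 purine salvage and breakdown genes 2 were higher and 3 lower, with a median of -0.21, among them Adk (1.87 and 0.52) and Xdh (1.92 ± 0.22, and a bound of 1.75 in MPP) higher and Nt5c2 (-1.20 and -0.90) lower.

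Cell cycle genes were split. Of 28 mitotic genes 9 were 1.5-fold higher and 2 lower, but the median was 0.04, below the 0.11 of all genes, and it turned to -0.04 and -0.03 with quantile normalization alone or after the normexp correction. Foxm1, the transcription factor that drives mitotic genes, had signals of 48.03, 334.6, 335.2 and 402.4. It was higher at both of its probes, by 2.88 ± 0.22 and by a bound of 2.98. Ccnb2 had signals of 118.3, 472.1, 503.4 and 498.9, a difference of 2.08 ± 0.21. By contrast Cdk1, Plk1 and Top2a differed by -0.31, -0.29 and -0.16, Ccnb1 by -0.24, 0.81 and 0.35 at 3 probes, and Cdc25c by -2.12 ± 0.23. Genes of 1 mitotic programme thus did not move as a block.

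Of 13 genes for G1 cyclins and their partners 5 were higher and 0 lower, with a median of 0.11. Ccna2, with signals of 371.3, 771.7, 1471 and 1290, differed by 1.14 ± 0.20, and E2f1 by 0.94 ± 0.20. E2f3 was at 2.37 on one probe and -0.66 on another. The D cyclins Ccnd1, Ccnd2 and Ccnd3 differed by -0.27, -0.31 and 0.29. Of 34 replication genes 5 were higher and 2 lower, both below the shares of all genes (21.3% and 15.4%), with a median of 0.10. Orc6, with signals of 527.8, 1515, 1389 and 1511, was 1.60 ± 0.20 higher, and Mcm10 was -1.57 ± 0.21 from signals of 451, 143.4, 331.2 and 376.3. Cks1b, a cyclin-dependent kinase adaptor, was higher at both of its probes, by 1.37 and 1.41, with signals of 3697, 9268, 14030 and 11560 at the brighter one.

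Growth machinery showed small differences, mostly above 0, as were 58.3% of all genes. Of 28 cytosolic ribosomal protein genes 25 were above 0 and 1 was 1.5-fold higher (Rps2, at 0.61 and 0.24), with a median of 0.21 that lay at 0.11 after quantile normalization. Of 28 respiratory chain genes 24 were above 0 and 6 were 1.5-fold higher with 0 lower, with a median of 0.32. The share 1.5-fold higher was that of all genes (21.3%). Ndufa9, a complex I subunit, had signals of 377.8, 1067, 1292 and 1167. Of 28 proteasome genes 7 were higher and 1 lower (median 0.29), and of 20 chaperone genes 4 were higher and 0 lower (median 0.32). In MPP these 4 medians were -0.17, -0.20, -0.25 and -0.18, below the -0.06 of all genes. The WT LT-HSC array had the lowest value of the 4 for 25 ribosomal, 23 respiratory chain, 21 proteasome and 18 chaperone genes, with no share over all genes to set beside these counts.

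**Figure D4:**
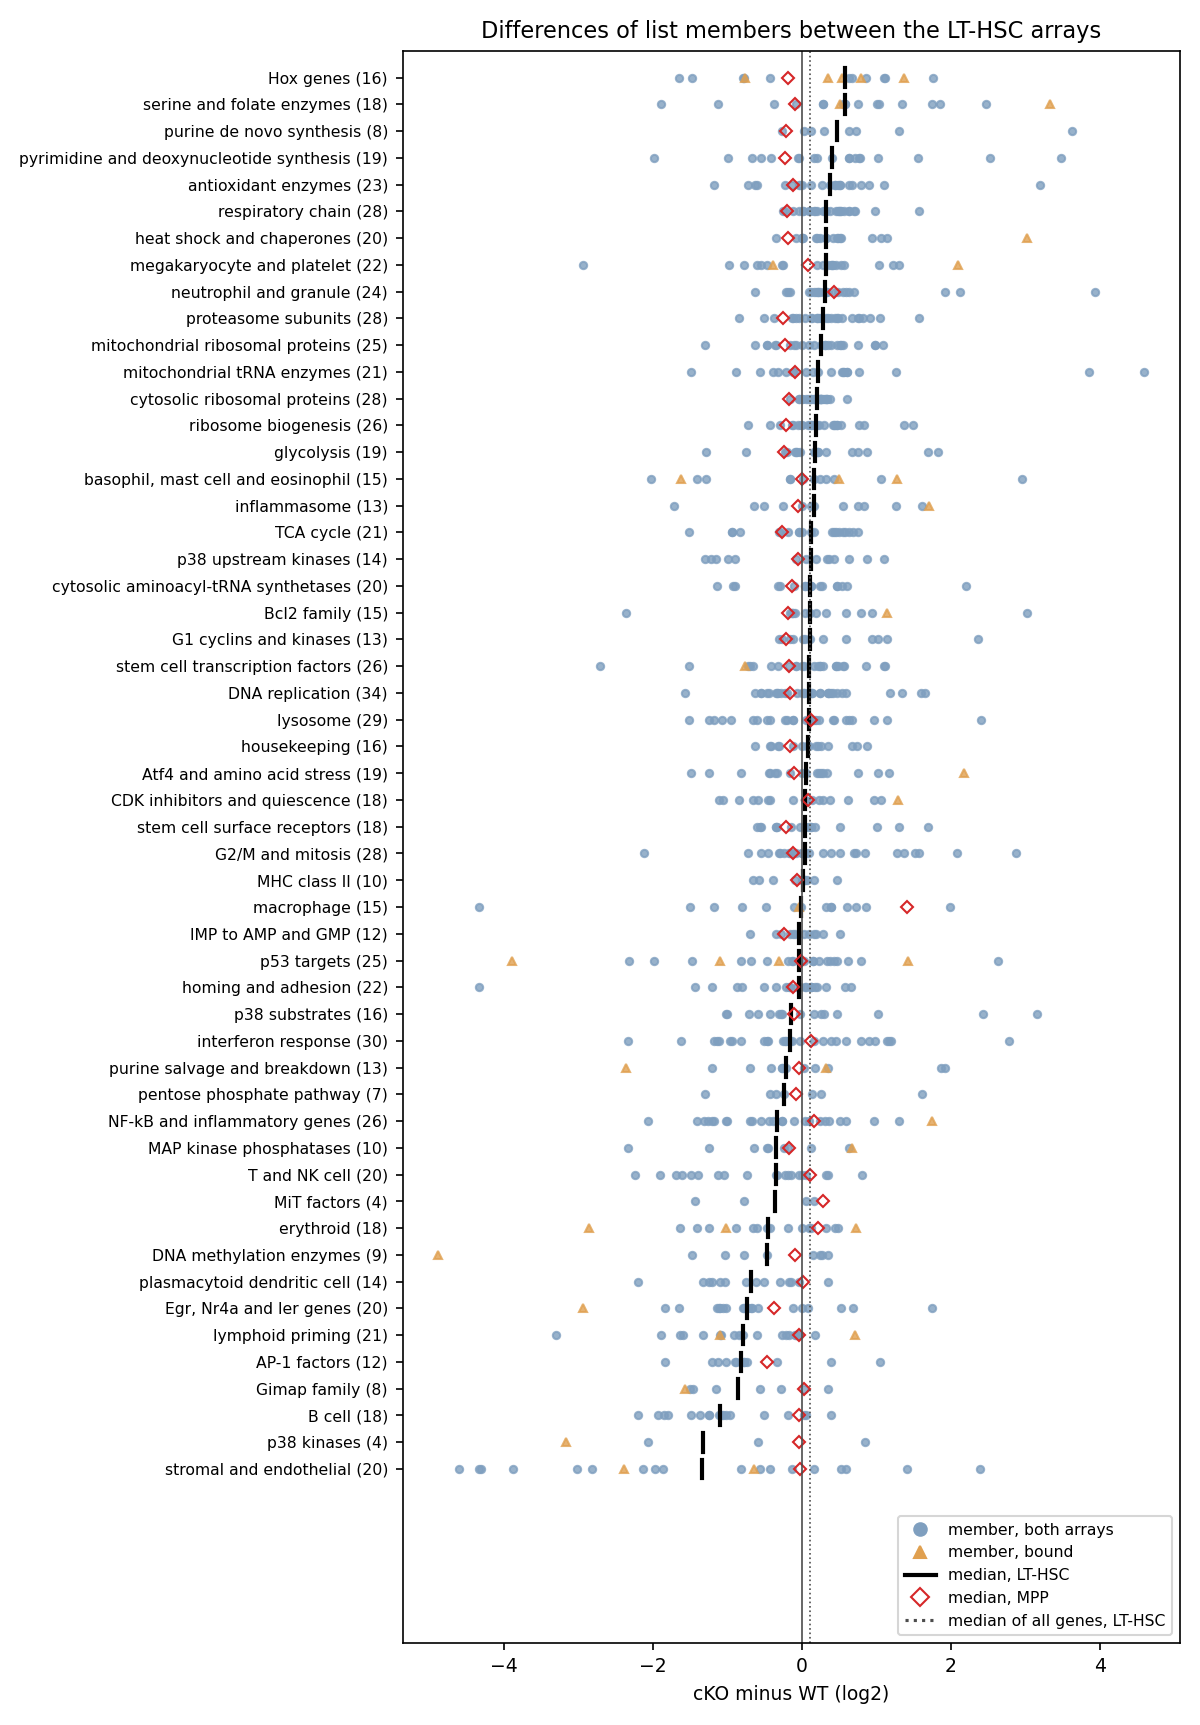
Each row is a gene list with the number of genes kept; points are the cKO minus WT differences (log2) of its members in LT-HSC, triangles are bounds, the black bar is the median in LT-HSC, the red diamond the median in MPP and the dotted line the median of all genes in LT-HSC. Stromal, p38 kinase, B cell, Gimap, AP-1 and lymphoid lists lie at the bottom with medians between -1.34 and -0.79, and most MPP medians lie near 0, with macrophage genes at 1.42.

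The labelled cell type was checked against its markers. Kit had signals of 2956, 2763, 3737 and 2658 and Ly6a, which encodes Sca-1, of 4387, 4287, 939.1 and 860.1, so both sort markers were present on both LT-HSC arrays. Cd34, absent from the sorted LT-HSC surface, had signals of 1169, 3601, 7733 and 6331, and Flt3 of 176.6, 189.2, 515.1 and 365.3. At these brightest probes both were lower on the LT-HSC than on the MPP arrays. Cd34 was higher on the cKO LT-HSC array at both probes, by 1.70 ± 0.20 and 1.15 (mm9 chr1:196787392-196787451 and chr1:196785280-196785339). Procr, a marker of the most primitive stem cells, was 1.31 ± 0.21 higher, and Slamf1 differed by -0.33 from signals of 26.19 and 19.66.

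Of 18 stem cell receptor genes 3 were 1.5-fold higher (Cd34, Procr and Cd48, the last at 1.01 and -0.01 on 2 probes) and 1 lower. Of 26 stem cell transcription factor genes 3 were higher and 6 lower. Mecom, required for stem cell maintenance, had signals of 181.9, 26.39, 139.1 and 77.15, a difference of -2.70 ± 0.25 (-1.43 after the normexp correction). Runx1 was at -1.51 on one probe and 0.02 on another, and Bmi1 at -0.72 and 0.90, whereas Zbtb20, Hoxb4 and Hoxa9 differed by 1.12, 1.11 and 0.87. Hoxb4 had dim signals of 20.62 (WT) and 42.11 (cKO), and the normexp correction left 0.27. Hlf, Meis1 and Gata2 differed by 0.56, 0.46 and 0.25, and Myc by -0.32.

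Genes of B cells were abundant on the LT-HSC arrays and lower on the cKO array. All 18 markers were well above background on both; 13 were 1.5-fold lower, 0 higher, and the median was -1.10. Their processed signals summed to 36680 (WT) and 20960 (cKO) in LT-HSC, and to 3304 and 3772 in MPP. Pax5, which commits cells to the B lineage, had signals of 2845, 705.8, 83.78 and 78.34 and was lower at both probes, by -1.93 ± 0.20 and -1.85. Cd79a, a chain of the B cell receptor complex, had signals of 5306, 2570, 102.8 and 102.7 (-0.96, and -1.18 at its other probe). The surrogate light chain genes Igll1 and Vpreb1, of early B cells, differed by -2.20 ± 0.21 and -1.85 ± 0.20. Jchain, Cd22 and Fcrla were not lower, at 0.40, 0.03 and 0.06. Per the labels, lineage-positive cells were excluded from the marrow cells sorted before injection. The RNA came from the CFSE-positive cells sorted after 16 h. How far B lineage cells account for other differences was not tested.

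Genes of other lymphoid cells were also more often lower than higher on the cKO LT-HSC array. Of 21 lymphoid priming genes 12 were 1.5-fold lower and 1 higher (median -0.79). Il7r, the interleukin 7 receptor, had signals of 883.4, 277, 3.274 and 2.674 (-1.59 ± 0.20), and Ets1 of 1990, 606.6, 110.5 and 82.99 (-1.63 and -0.54). Of 14 plasmacytoid dendritic cell genes 8 were lower and 0 higher (median -0.68), with a summed signal of 34260, 19970, 9164 and 9557. Klk1 had signals of 2145, 445.6, 24.86 and 21.44. Of 20 T and NK cell genes 9 were lower and 1 higher (median -0.34), with sums of 21030, 16870, 8407 and 8401. Cd8b1 and Zap70 differed by -1.68 and -1.61, Cd8a by -2.24 and 0.28 at 2 probes, and Cd3d, Cd3e and Cd4 by 0.35, -0.23 and 0.01 at their brightest probes. Of 8 Gimap genes, GTPases of lymphocyte survival, 4 were lower and 0 higher. The WT LT-HSC array had the highest of the 4 values for 15 of 18 B cell, 13 of 21 lymphoid priming, 12 of 14 dendritic and 15 of 20 T and NK cell genes.

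Genes of the marrow stroma had the lowest median of the gene lists. Of 20 stromal and endothelial genes kept of 24, 12 were 1.5-fold lower and 3 higher, with a median of -1.34 that was -0.86 after the normexp correction. Their signals summed to 10380 (WT LT-HSC) against 2667, 3261 and 4345 (the other arrays), and without Cxcl12 to 5266 against 2467, 3167 and 4192. Cxcl12, the chemokine by which niche cells hold stem cells, had signals of 5118, 199.9, 94.87 and 153.3, a difference of -4.60 ± 0.21, with a bound of -1.87 at its second probe. Col1a1, a collagen of bone, had signals of 428.2, 20.58, 29.02 and 20.25, and the stromal receptor gene Lepr 255.8, 16.52, 8.917 and 11.23. For these 3 genes the WT LT-HSC array alone was high. Vcam1, the adhesion molecule of stroma and macrophages, had signals of 339.4, 16, 714.2 and 1896, but its other probe read 7.898, 15.27, 244 and 729 and was not well above background on either LT-HSC array, so it does not bear out the WT LT-HSC signal. Pecam1 and Kitl went the other way, at 2.39 and 1.41, and Pdgfra, Postn, Lum and Flt4 were not well above background on either LT-HSC array. The part of these cells' RNA in the other differences was not tested.

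Markers of myeloid and erythroid cells showed other patterns. Macrophage genes had a median of -0.01 in LT-HSC, with 4 of 15 higher and 4 lower, while in MPP 13 of 14 were higher, with a median of 1.42. Of 24 neutrophil genes 6 were higher and 1 lower in LT-HSC, against 21.3% and 15.4% of all genes. The higher share lay near the background and the lower share below it. The median was 0.31 (0.43 in MPP), and the summed signal was 179100, 191600, 140900 and 157600. Lyz2, which encodes lysozyme, had signals of 197.8, 817.5, 172.5 and 391, a difference of 2.13 ± 0.21. Of 18 erythroid genes 8 were lower and 1 higher (median -0.45), and 7 were above 0. Hba-a1, an alpha globin, had signals of 11150, 4417, 2692 and 2992. The summed signal of the erythroid list differed little between the LT-HSC arrays, at 174700, 170100, 148200 and 159400. Megakaryocyte genes were split 4 to 4, with Tubb1 at -2.94 ± 0.24 and Thbs1 at 1.23 ± 0.23.

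Some genes were read by separate probes that all gave the same direction. Of 3693 genes with at least 2 non-overlapping probes and all kept probes measured on both arrays, 63 (1.71%) were 2-fold higher at every probe and 52 (1.41%) were 2-fold lower at every probe. Requiring direction only, 1125 (30.46%) were higher at every probe and 809 (21.91%) lower. The 12 genes each way with the largest smallest difference are described next, and these values chose them.

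Ipo11, a nuclear import receptor, led the higher genes. Its brighter probe (mm9 chr13:107626293-107626352, minus strand) had signals of 67.89, 685.2, 264.3 and 259.1, a difference of 3.42 ± 0.21, and the other (chr13:107584538-107584597) of 33.57, 284.9, 238.2 and 206.9, a difference of 3.17. The cKO LT-HSC array was the highest of the 4 at each. Fuom, a fucose mutarotase, differed by 4.09 and 2.84, with a WT signal of only 18.11. Tnfsf12, the cytokine TWEAK, differed by 2.28 and 2.34 with signals of 77.15, 353.2, 97.69 and 89.72. Homer3, a scaffold protein, differed by 2.12 and 1.97 with signals of 184.7, 756.7, 997.9 and 966.2, where the WT LT-HSC array alone was low. The other 8 were Usp40, Ctdspl2, Polg2, Ccdc66, Mex3b, Gtdc1, Mterf1b and Dhrs13, with smallest differences between 1.64 and 2.06. Polg2 is the accessory subunit of the mitochondrial DNA polymerase.

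The lower genes were described by the same rule. Hopx, a homeodomain protein without DNA binding, had signals of 430.2, 90.49, 64.18 and 16 at its brighter probe, differences of -2.17 ± 0.21 in LT-HSC and -1.98 in MPP, and a second probe at -2.07. Bach2, a repressor of lymphocyte differentiation, had signals of 903.7, 179, 33.61 and 15.89, differences of -2.25 ± 0.21 and -1.05, and a second probe at -1.63. Siglecg, an inhibitory receptor of B cells, differed by -2.50 and -2.05 with signals of 413.6, 68.91, 33.04 and 25.36. Pax5 is described above. Spsb3 differed by -2.10 and -2.07, and Trak2, an adaptor of mitochondrial transport, by -2.02 and -1.58 with signals of 1053, 245.1, 453.9 and 387.8. The others were B3galt4, Mex3d, Gas7, Zc2hc1a, Slc25a53 and Hook2, with smallest differences between -1.93 and -1.55. Further genes 2-fold lower at every probe included Zap70, Tcf7 and Clec9a, genes of T cells and dendritic cells.

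**Figure D5:**
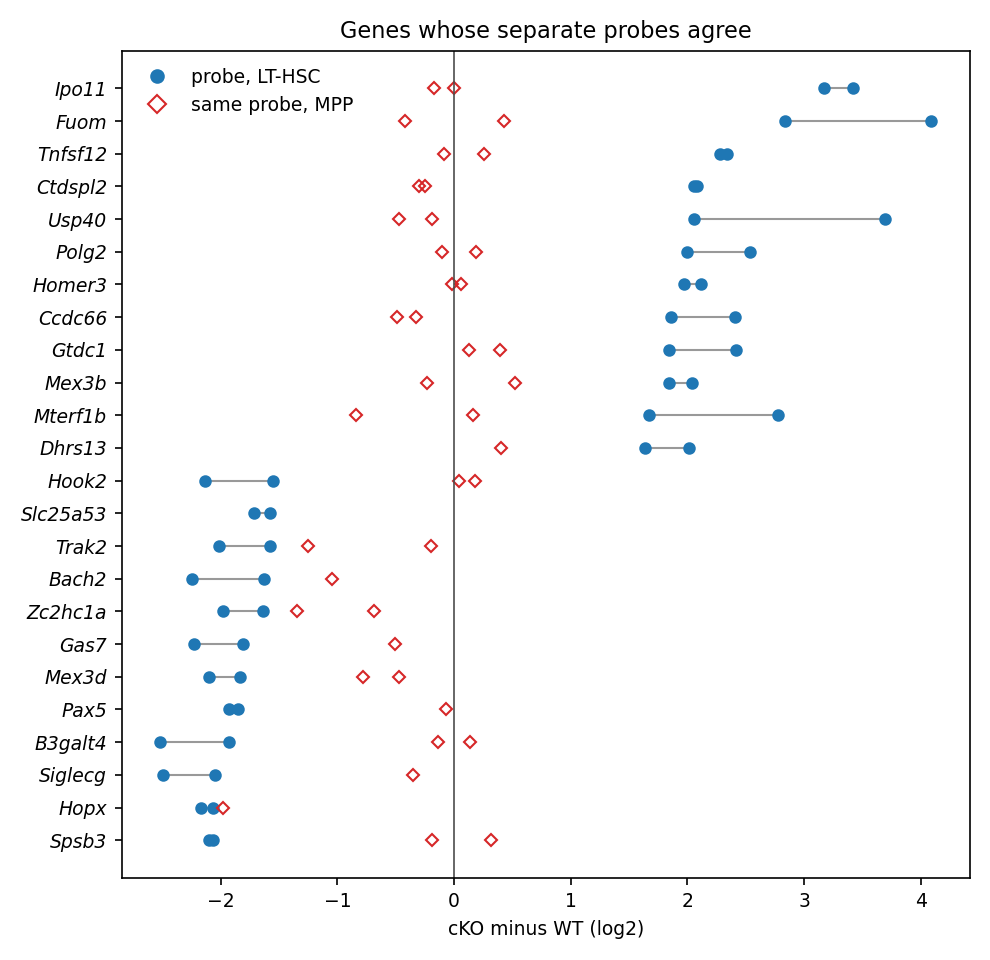
The cKO minus WT difference (log2, x axis) of each probe of the 12 named higher and 12 named lower genes, with filled circles for LT-HSC and open red diamonds for the same probe in MPP where it was well above background on both MPP arrays; grey lines join the probes of a gene. The LT-HSC points lie beyond 1.5 in either direction because they chose the genes, and the MPP points lie mostly near 0, with Hopx at -1.98 and Zc2hc1a at -1.35.

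The MPP pair, which did not enter the choice, showed these genes differently. Of the 63 higher genes 61 were measured in MPP; 21 had the same direction, 0 reached 2-fold in it and 4 reached 2-fold in the opposite direction, with a median of -0.24. Of all genes 43.6% were higher in MPP, with a median of -0.06. Of the 52 lower genes 46 were measured; 33 had the same direction, 5 reached 2-fold in it and 1 in the opposite direction (Dmpk), with a median of -0.22. Of all genes 56.4% were lower in MPP and 1.83% were 2-fold lower. Those 5 were Hopx, Zc2hc1a, Bach2, Zbtb10 and Il12rb1. Across 21466 genes the LT-HSC and MPP differences had a correlation of 0.02, as a description of 4 arrays.

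Some genes were well above background on 1 LT-HSC array only. Cfb, complement factor B, was at least 46.0-fold higher on the cKO array, with signals of 9.924, 509.4, 3.806 and 30.36. Themis, a T cell signalling gene with probes of like direction, was at least 23.0-fold higher, with signals of 3.044, 254.6, 3.837 and 3.202. Syde1, Mlh3 and Cpq were at least 25-, 23.6- and 21.8-fold higher. In the other direction Igsf23 was at least 60.7-fold lower, with signals of 810.8, 5.4, 7.5 and 40.36, and Dnmt3l, a cofactor of DNA methylation in germ cells, at least 29.4-fold lower, with signals of 392.3, 5.085, 29.82 and 29.71. Cercam, Senp6 and Snhg20 were at least 23.7-, 22.4- and 22.2-fold lower. Apart from Themis each rests on 1 probe, and the normexp correction put Cfb at 2.84 and Dnmt3l at -2.56 on the log2 scale.

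Genes next to Mapk14 on chromosome 17 did not differ more often than others. Of 54 genes within 1 Mb 1 was 2-fold higher and 3 were lower (7.4%), of 318 within 5 Mb 16.4% differed 2-fold, and of all genes 19.1%.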

How the data were processed

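RNA of WT and cKO LT-HSC and MPP was hybridised by the authors to 1 Agilent 1-colour array each (design 028005, probe positions on mm9, per the file headers). The deposited intensity of a spot is the processed signal, background-subtracted and spatially detrended by the scanner software with no scaling between arrays, per the file headers. The headers name Agilent Feature Extraction 10.7.3.1 and the submitters' processing notes 9.5.3. The score columns are flags of 0 or 1 for a spot (control, outlier, saturated, well above background), set by the same software, per the file headers. The series table that the authors deposited holds linear ratio values relative to each probe's own level across arrays, which the values show and no label states, and it served as an alternative.

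Each LT-HSC array had 59305 spots, of which 149 (WT) and 139 (cKO) outlier spots were left out and 0 were saturated. Well above background were 68.3% and 70.5% of spots, outlier spots included. Probes printed 10 times (399 probes) had a median SD of 0.11 on the log2 scale, and 1 array for each group limits the precision far more. The log2 signal minus that of the array's 75th percentile (213.7 and 202.0) was averaged over spots, and probes well above background on at least 1 LT-HSC array were kept. Where only 1 array was, the bound sets the bright value against a floor, which is the lowest signal well above background on the other array (11.7 on WT and 12.6 on cKO, after spots were averaged on the log2 scale) or the dim signal itself if that is higher. A gene is read at its brightest kept probe. Names came from the file and from RefSeq (GRCm38.p6, for names only): accessions settled 26762 probes, symbols 3819 and older symbols 639, while 24461 carry the name that the file gives. Promoter windows are RefSeq's on GRCm38.p6, the mouse build after mm9, and were read there only.

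With no replicates there was no test. Differences were counted at 2-fold and 1.5-fold and set beside the same counts over all genes. Lists of genes (53) and all members were chosen with earlier results of these data known. The rule named Mapk14, the 12 genes each way that led by the smallest difference over separate probes, and all measured members of 6 short lists. It also named 5 bounds each way among genes whose other kept probes, if any, had the same direction. Of each other list it named up to 4 members with the largest difference whose other kept probes shared its direction. Members with probes 2-fold or more in each direction were added. Other list members were named after their values were seen. Alternatives were quantile normalization, normexp with quantile normalization (limma 3.58.1, R 4.3.3), the percentile over probes detected on both arrays, probes detected on both arrays only, no filter, the mean of a gene's probes, the second probe, the brighter genes and the authors' table. Counts were made with Python 3.11.15, pandas 2.3.3 and numpy 2.4.6, and the steps were tested on simulated data. Columns of other series numbered 0. Results for some genes are not reported here.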

Additional observations from a re-analysis of the deposited data

Results flagged for a closer look

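Among the named genes, 7 differed 2-fold or more in one direction in LT-HSC and 2-fold or more in the other in MPP. That gap between the populations was not tested, since each population had 1 array for each genotype. Signals are again in the order WT LT-HSC, cKO LT-HSC, WT MPP and cKO MPP.

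Vcam1, the adhesion molecule of stroma and macrophages, differed by -4.33 in LT-HSC and by 1.44 in MPP, with signals of 339.4, 16, 714.2 and 1896. Its other probe, at 7.898, 15.27, 244 and 729, was not well above background on either LT-HSC array, so the LT-HSC difference rests on 1 probe that the other does not bear out. Cd5l, a secreted macrophage protein, stood at -1.50 and 1.41 with signals of 1244, 415.4, 1924 and 4995. Hmox1, the haem oxygenase of macrophages and stressed cells, was at -1.18 and 1.48 with signals of 1161, 485.2, 2790 and 7619, and its other probe read -0.44 in LT-HSC. These 3 genes were highest on the cKO MPP array, the array on which 13 of 14 macrophage genes were above the WT array.

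Slc4a1, the band 3 anion exchanger of red cells, was at -1.63 and 1.30 with signals of 131.9, 40.13, 31.47 and 75.68. Ear2, an eosinophil ribonuclease, was at -1.41 and 1.22 with signals of 72.87, 26, 46.22 and 105.2. Phlda3, a p53 target that restrains Akt signalling, was at -1.47 and 1.24 with signals of 116.5, 39.65, 23.71 and 54.98. For Slc4a1 and Phlda3 the WT LT-HSC array was the highest of the 4. Aim2, a sensor of cytosolic DNA, had the opposite order, at 1.61 and -2.16, with signals of 78.55, 226.6, 170.2 and 37.33.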

How the results depend on the processing

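No paired analysis was possible because each group had 1 array and the labels give no replicate numbers. Against 2948 genes 2-fold higher and 2330 lower, the normexp correction with quantile normalization gave 888 and 1128, the second probe 1125 and 839 (of the 7952 genes that have one) and the brighter genes 920 and 1102. The last 2 settings test fewer genes. Quantile normalization alone gave 2545 and 2657, and no filter 4357 and 3122. Medians of lists moved with the choice of probe. Ring synthesis of purines went to 0.74 with the mean of probes and 1.21 at second probes (3 genes), the later steps of purine synthesis to 0.67 (5 genes), AP-1 to -1.40 (1 gene) and the Egr, Nr4a and Ier list to -1.11 (2 genes). Stromal genes went to -0.86 with normexp, -0.69 without the filter, -0.87 with the mean of probes and -0.32 at second probes (6 genes). For list medians of 1.5-fold or more and named genes of 2-fold or more, reversals came only where another probe was read, among the settings run; smaller values, such as the mitotic and housekeeping medians, also turned with normalization. The p38 kinases stood at 0.13 (second probe of Mapk14 alone), Rrm2b at 1.40 and Bcl2l11 at -1.38 (second probes, against -1.98 and 3.02), Xaf1 at -1.15 and -3.44 (mean and second probe, against 1.14), and Tdg at 0.56 and 2.60 (against -1.47). Of 10 such medians 9 reversed under no alternative, as did 185 of 189 such genes. Most of these genes were named only if their other kept probes shared a direction, and many have 1 probe. Rrm2b, Bcl2l11, Xaf1 and Tdg were named because their probes opposed each other. The share of genes is therefore no measure of agreement between probes. That agreement was 66.4% over genes 2-fold at the brightest probe with a second, non-overlapping one. Otherwise the cause of a shift was not tested. Dim signals limit the size of large differences.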

Other observations

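Inflammatory genes outside the early response were more often lower on the cKO LT-HSC array. Of 26 NF-kB and inflammatory genes 10 were 1.5-fold lower and 4 higher, with a median of -0.33 (0.16 in MPP). Tnf, the cytokine, had signals of 635.3, 241.5, 153.5 and 176.7, a difference of -1.31 ± 0.20. Ccl4, a chemokine, had signals of 714.1, 162, 378.2 and 222, a difference of -2.06 ± 0.21 in LT-HSC and -0.74 in MPP. Nfkbiz, a nuclear cofactor of NF-kB, was at -1.41, and Nfkbia, the inhibitor that NF-kB itself induces, at 0.51. For 16 of the 26 the WT LT-HSC array was the highest of the 4. Interferon response genes were split, 8 higher and 8 lower of 30 with a median of -0.16, with Ifit2 at 2.78 (signals of 28.51 and 184.6) and Mx2 at -1.62. Cxcl10, an interferon-induced chemokine, had the lowest brightest-probe value of the list, -2.33, and 0.84 at its other probe. Xaf1 had probes at 1.14 and -3.44. Of 13 inflammasome genes 5 were higher and 2 lower. Nlrp3, the sensor subunit, was higher at both probes in LT-HSC, by 1.26 and by a bound of 1.62, and by 1.52 in MPP at the brighter one.

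Stress and survival genes showed no shared direction. Of 25 p53 targets 4 were higher and 7 lower, with a median of -0.03. Perp stood at 2.64 and Plk2 at -2.32, while Cdkn1a, the p21 inhibitor of cyclin-dependent kinases, was at 0.23, 1.40 and 1.65 over 3 probes. Of 15 Bcl2 family genes 5 were higher and 1 lower. Bcl2l2, a survival gene, was lower at both probes (-2.36 and -0.83), and Bcl2l11, which encodes the death protein Bim, had probes at 3.02 and -1.38. Of 18 CDK inhibitor and quiescence genes 4 were higher and 4 lower. Of 19 Atf4 and amino acid stress genes 4 were higher and 3 lower, and Trib3 was higher in both populations (1.17, and a bound of 2.74 in MPP). Of 23 antioxidant genes 6 were higher and 4 lower, with a median of 0.38.

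In central metabolism, 5 of 19 glycolysis genes were higher and 2 lower (median 0.18). Pfkl, the liver type phosphofructokinase, had signals of 699.5, 2132, 3275 and 2579 (1.69 ± 0.20), and Pfkp, the platelet type, was at -1.28 and -0.61. Pentose phosphate genes were split 1 to 1 of 7, with G6pdx, the entry enzyme, at 499, 1450, 1634 and 1772 (1.62 ± 0.20). Pfkl and G6pdx were lowest on the WT LT-HSC array. Of 21 TCA cycle genes 3 were higher and 4 lower (median 0.12). Of 21 mitochondrial tRNA enzymes 6 were higher and 2 lower. Gtpbp3, a tRNA modifying enzyme, had signals of 16.32, 372.7, 21.28 and 86.14, differences of 4.60 ± 0.32 in LT-HSC (2.48 after the normexp correction) and 2.05 in MPP. Mitochondrial ribosomal protein genes had a median of 0.26, ribosome biogenesis 0.19, and cytosolic tRNA synthetases and lysosomal genes 0.11 and 0.10.

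Of 9 DNA methylation enzymes 4 were lower and 0 higher, with a median of -0.46. Tet2 was lower at 3 probes (-0.78, -0.69 and -0.55) with signals of 1616, 886.3, 506.9 and 579.1, and Dnmt3a, whose loss expands stem cells, was at -1.03 ± 0.20 and -0.50 in MPP. Tdg had probes at -1.47 and 2.60. Of 16 Hox genes kept of 25, 8 were higher and 5 lower, with a median of 0.58 that was 0.07 after the normexp correction. Hoxa9 was higher at both probes (0.87 and 2.60), and its neighbours Hoxa5 and Hoxa6 were at -1.64 and -1.47. Of 22 homing genes 5 were lower and 1 higher, with the integrin chain Itgb1 at -1.43 and -0.68. MHC class II genes had a median of 0.02.

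Of 15 basophil, mast cell and eosinophil genes 3 were higher and 4 lower. Cpa3, the mast cell carboxypeptidase, had signals of 69.15, 509, 627.3 and 664.7, so the WT LT-HSC array alone was low. Prg2, the eosinophil major basic protein, had signals of 1787, 416.7, 241.9 and 4.897 and was lower in both populations. Of 16 housekeeping genes 3 were higher and 1 lower, with a median of 0.08 that was -0.03 after the normexp correction. Tbp, the TATA-binding protein gene, was at 0.74 and 1.75 at its 2 probes. With this scaling a reference gene too differed by over 1.5-fold between these arrays. At its brighter probe, with signals of 103.2 (WT) and 162.9 (cKO), the normexp correction left 0.46.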
